A study of Mus musculus with 12 samples.

Results

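The cornified envelope genes examined here are 9 genes of squamous differentiation, Sprr1a, Sprr1b, Sprr2d, Sprr3, Ivl, Sbsn, Krtdap, Cnfn and Tgm1, of 18193 genes measured. Each was represented by the probe set that carries its symbol alone, and where there were several, by the one with the highest mean over 12 arrays. All 9 genes were measured, by 12 probe sets. Total RNA came from tumours of 3 mouse lung adenocarcinoma lines, with 4 arrays per line. The arrays of a line are numbered here as replicates 1 to 4 in the order of the samples, and these numbers pair nothing. All 3 lines descend from mice carrying the alleles p53R172H∆g/+ and K-rasLA1/+, grown as mass populations rather than single clones and then as tumours in syngeneic hosts. Both 393 lines were started from 1 mouse, 393P from its primary lung tumour and 393LN from its mediastinal lymph nodes, whereas 344SQ was started from subcutaneous tumour tissue of a different mouse. The transplanted tumours were dissected away from the tissue around them before freezing. The labels call 344SQ highly metastatic, 393LN intermediately metastatic and 393P non-metastatic. Mouse of origin, site of origin and metastatic class cannot be told apart for 344SQ, and the 3 lines share both alleles, so no group lacks them. For 393LN, site of origin and metastatic class coincide as well. The codes in the sample titles of 393LN also run in a series apart from those of 344SQ and 393P. What these codes stand for is not given, and line and code series cannot be told apart for 393LN. The age of the hosts, the site of the tumours in them and whether each array came from a separate tumour are not given in the sources used here, so that p-values measure the spread between these arrays.

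The cornified envelope is the protein shell that replaces the plasma membrane when a keratinocyte of the skin or another stratified epithelium completes its differentiation. Soluble precursors such as involucrin, loricrin and the small proline-rich proteins are crosslinked to one another by transglutaminases, and lipids are then attached to the outside. Simple airway and alveolar epithelium makes no such shell, although single genes of the set, small proline-rich proteins above all, are also induced in simple epithelia by injury or stress. Sprr1a, Sprr1b, Sprr2d, Sprr3 and Ivl lie on chromosome 3 in the epidermal differentiation complex, where Sprr1b, Sprr3 and Sprr1a directly neighbour each other.

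Of the 9 genes, 7 showed one of 2 kinds of pattern, one that followed the line and one that followed single arrays, while Cnfn and Sprr3 varied little. The promoters of 4 genes are shown because they carry the most values below. Promoter sequences of all 9 genes were found in RefSeq (GRCm38.p6), as windows of 300 bases, 250 before the start of the gene and 50 after it, with 2 windows for Tgm1. They are written 5′ to 3′ on the gene's own strand, and capitals mark TGAGTCA on either strand, the letters bound by AP-1, a dimer of Fos and Jun proteins known to act on several envelope genes. Sprr1a, whose level followed the line, has its window at chr3:92485832-92486131 on the minus strand.
Sprr1a: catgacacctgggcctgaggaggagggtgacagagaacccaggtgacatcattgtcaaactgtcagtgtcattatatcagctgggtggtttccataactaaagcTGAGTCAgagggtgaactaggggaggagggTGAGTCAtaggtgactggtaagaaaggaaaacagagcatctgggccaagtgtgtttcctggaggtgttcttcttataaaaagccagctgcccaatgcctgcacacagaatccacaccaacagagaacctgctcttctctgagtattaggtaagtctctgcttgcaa
Ivl, which also followed the line, has its window at chr3:92573686-92573985 on the minus strand.
Ivl: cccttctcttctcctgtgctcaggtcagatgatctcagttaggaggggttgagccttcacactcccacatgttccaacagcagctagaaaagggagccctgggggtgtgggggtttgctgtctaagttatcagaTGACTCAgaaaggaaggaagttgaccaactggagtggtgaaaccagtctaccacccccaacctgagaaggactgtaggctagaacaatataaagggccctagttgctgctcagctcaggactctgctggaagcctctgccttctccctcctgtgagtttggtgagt
Krtdap, which followed single arrays, has its window at chr7:30787655-30787954 on the plus strand.
Krtdap: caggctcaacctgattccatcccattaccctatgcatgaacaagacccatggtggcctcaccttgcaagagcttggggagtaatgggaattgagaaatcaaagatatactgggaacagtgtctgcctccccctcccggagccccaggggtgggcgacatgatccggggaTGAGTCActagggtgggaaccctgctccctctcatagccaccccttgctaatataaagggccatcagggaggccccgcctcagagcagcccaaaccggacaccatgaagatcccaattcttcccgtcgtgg
Sprr1b, which did so too, has its window at chr3:92438730-92439029 on the minus strand.
Sprr1b: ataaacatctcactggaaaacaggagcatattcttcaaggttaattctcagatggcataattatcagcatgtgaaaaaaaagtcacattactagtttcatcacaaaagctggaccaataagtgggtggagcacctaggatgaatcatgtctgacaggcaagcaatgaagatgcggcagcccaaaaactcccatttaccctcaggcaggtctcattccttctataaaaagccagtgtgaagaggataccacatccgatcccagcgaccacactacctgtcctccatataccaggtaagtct

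The AP-1 letters were found in the windows of 5 of the 9 genes, Sprr1a, Ivl, Krtdap, Sbsn and Sprr2d, against 5.2% of 32851 promoter windows of the same length. Sprr1a held 2 matches, as 0.222% of all windows did. Both patterns had promoters with and without these letters. TATAAA was present in 6 of the 9 genes, all but Sbsn, Tgm1 and Cnfn, and in 13.6% of all windows. AACCGGTT, the letters bound by grainyhead-like factors, was in none of the 9 and in 0.146% of all windows. These matches describe letters in the windows, overlaps between motifs were not counted apart, and binding was not measured.

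Levels are given as log2(intensity + 16), on which the lowest possible value is 4.09, and levels of different genes are not set against each other. The words rose, fell, higher and lower are kept for changes with an adjusted p under 0.05 in limma's fit over all 12 arrays, two-sided and adjusted over the 18193 genes. Changes are log2 differences, folds are on the same scale and understate the change of dim genes, and intervals are 95%. Array medians lay between 7.19 and 7.29 before the 16 was added. The simple epithelial genes Krt8, Krt18, Krt19 and Cdh1 had line means between 13.2 and 14.3, while the lung lineage factor gene Nkx2-1 was at 4.24, 4.18 and 4.15 in 344SQ, 393LN and 393P, near the floor in all.

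In 344SQ against 393P, the comparison of the highly metastatic with the non-metastatic line, the envelope precursor gene Ivl and the crosslinking enzyme gene Tgm1 were lower in 344SQ, and none of the 9 genes was higher. Ivl was 3.93-fold lower and Tgm1 2.35-fold lower. Thus 2 of 9 genes passed, where 10.5% of all genes did in either direction, 4.86% higher and 5.62% lower. The 4 values of each line did not overlap for the same 2 genes, and for 16.7% of all genes. The median change of the 9 genes was -0.18 against -0.00 over all genes.

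In 344SQ against 393LN, the highly against the intermediately metastatic line, Ivl was again lower in 344SQ, by 4.28-fold, and Sprr1a was 2.10-fold higher. These were 2 of 9 genes, against 10.9% of all genes, of which 3.99% were higher and 6.92% lower. The values of the lines did not overlap for Ivl and Sprr1a, and for 17.4% of all genes. The median change of the 9 genes was -0.45 and that of all genes -0.02. The comparison shares its 344SQ arrays with the one above, so that Ivl in both is not a repeat.

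In 393LN against 393P, the tumours of the lines that were started from lymph node and from primary tumour of 1 mouse, Sprr1a was 2.46-fold lower in 393LN and no other of the 9 genes passed. Of all genes 2.45% passed, 1.75% higher and 0.698% lower, and 10.3% had values that did not overlap, as did 1 of the 9 genes. All genes gave 319 higher and 127 lower, a split that quantile normalization moved to 246 and 174. The median change of the 9 genes was 0.28 and that of all genes 0.01. A share of 9 genes moves in steps of 1 gene, and nothing about the set as a whole is read from these counts.

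**Figure D1:**
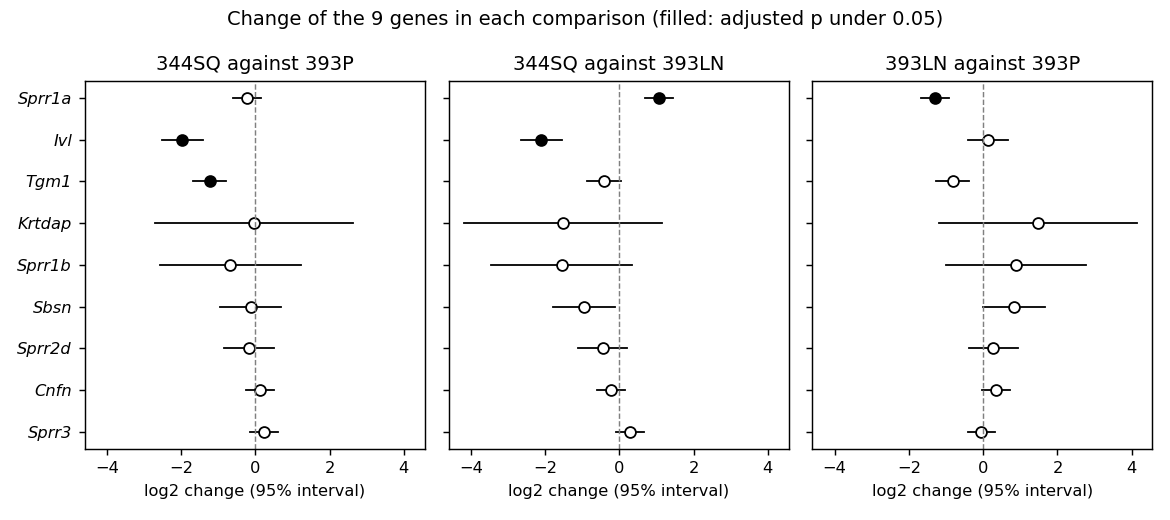
Log2 change of the 9 genes in the 3 comparisons, first line minus second, with 95% intervals from limma and filled points at an adjusted p under 0.05. Ivl and Tgm1 lie left of 0 in 344SQ against 393P, Sprr1a lies on opposite sides of 0 in the 2 comparisons with 393LN, and Krtdap and Sprr1b have the widest intervals.

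Sprr1a encodes a small proline-rich protein that is crosslinked into the envelope and bridges other precursors. On the 344SQ arrays it was at 12.96, 12.61, 12.89 and 12.92, on 393LN at 12.02, 11.76, 11.31 and 12.03, and on 393P at 12.83, 13.03, 13.06 and 13.37. All 393LN arrays lay below all others, while 344SQ and 393P overlapped. The means were 12.85 ± 0.16 (SD, n = 4), 11.78 ± 0.34 and 13.08 ± 0.22. The change was 1.07 ± 0.17 (SE, adjusted p = 0.0021) in 344SQ against 393LN and -1.30 ± 0.17 (adjusted p = 0.00422) in 393LN against 393P. In 344SQ against 393P it was -0.23 (interval -0.60 to 0.14, adjusted p = 0.488), so that these neighbours in the order 393P, 344SQ, 393LN did not differ beyond their spread. Leaving out any 1 array kept both calls (highest adjusted p 0.00842 and 0.0184), but leaving out the 4 arrays highest in the skin keratin gene Krt1 together ended them (0.79, adjusted p = 0.0966, and -1.06, adjusted p = 0.15).

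Ivl encodes involucrin, the rod-like protein laid down first beneath the membrane as scaffold of the envelope. It was at 6.88, 7.39, 7.40 and 7.71 on 344SQ, at 9.77, 9.33, 9.61 and 9.08 on 393LN and at 9.26, 9.29, 8.75 and 9.98 on 393P. Every 344SQ array lay at least 1 log2 unit below every array of the 393 lines, and these overlapped each other. The change was -1.97 ± 0.25 (adjusted p = 0.000411) in 344SQ against 393P and -2.10 ± 0.25 (adjusted p = 0.000368) in 344SQ against 393LN. In 393LN against 393P it was 0.13 (interval -0.42 to 0.67, adjusted p = 0.876). A second, dimmer Ivl probe set moved likewise, by -1.65 ± 0.38 (adjusted p = 0.0198, adjusted over 34945 probe sets) and -2.09 ± 0.38 (adjusted p = 0.00661), and its 344SQ values lay below all others too.

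Tgm1 encodes transglutaminase 1, the membrane-anchored enzyme that crosslinks the precursors and attaches lipid to them. The 344SQ values were 8.0, 8.05, 7.94 and 7.87, those of 393LN 8.62, 8.71, 8.05 and 8.13, and those of 393P 8.58, 9.49, 9.48 and 9.24. The 344SQ arrays were tightly grouped, 393LN lay between, and 393P replicate 1 was within the 393LN range. The change was -1.23 ± 0.21 (adjusted p = 0.00269) in 344SQ against 393P. In 344SQ against 393LN it was -0.41 (interval -0.86 to 0.04, adjusted p = 0.243) and in 393LN against 393P -0.82 ± 0.21 (adjusted p = 0.0615). The latter passed without 393P replicate 1 (-1.03, adjusted p = 0.015), with quantile normalization (-0.86, adjusted p = 0.0364), with the dimmest 25% or 50% of genes left out (0.042 and 0.0344) and with a trended, robust prior (0.0446). The order 393P, 393LN, 344SQ therefore rests on its ends, and neighbours in it were not told apart in the fit used here.

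**Figure D2:**
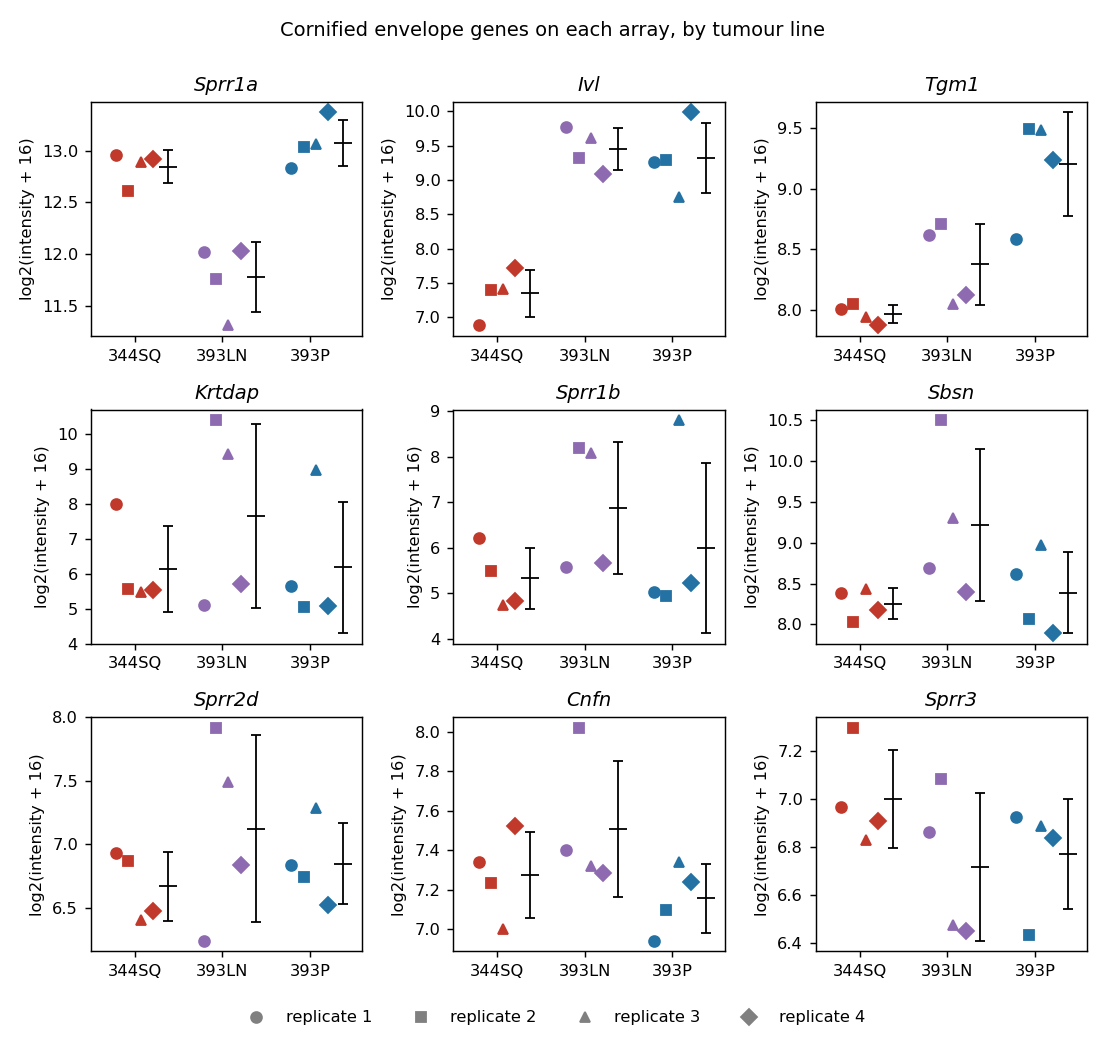
Level of each of the 9 genes as log2(intensity + 16) on the 4 arrays of 344SQ, 393LN and 393P, with 1 marker shape per replicate and the mean ± SD beside each line; axes differ between panels. Ivl is low on all 344SQ arrays and Sprr1a on all 393LN arrays, while Krtdap and Sprr1b are high on 393LN replicates 2 and 3 and 393P replicate 3.

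Krtdap, Sprr1b, Sbsn and Sprr2d did not separate the lines but were high on the same few arrays. Krtdap encodes a small secreted protein made by differentiating keratinocytes. It was at 7.99, 5.56, 5.47 and 5.53 on 344SQ, at 5.11, 10.40, 9.42 and 5.71 on 393LN and at 5.65, 5.04, 8.97 and 5.06 on 393P. The arrays that stood out were 393LN replicates 2 and 3, 393P replicate 3 and, less far, 344SQ replicate 1. On the other 8 arrays Krtdap lay between 5.04 and 5.71 whatever the line. Its SD among arrays of a line was 2.00, and only 6 of the 18193 genes had a larger one.

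Sprr1b, the close relative and neighbour of Sprr1a, was at 6.20, 5.49, 4.75 and 4.84 on 344SQ, at 5.58, 8.19, 8.08 and 5.66 on 393LN and at 5.03, 4.94, 8.80 and 5.21 on 393P. Its 3 highest arrays were those of Krtdap, with 393P replicate 3 first, and the other 393P arrays were near the floor. Its SD within lines was 1.42, exceeded by 36 genes. Sprr1a did not share this pattern: 393LN replicates 2 and 3 were its lowest 2. On 393P replicate 3 Sprr1a was at 13.06, below only 393P replicate 4 (13.37) and among the other values of its line.

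Sbsn encodes suprabasin, a secreted protein of the suprabasal layers. It was at 8.38, 8.03, 8.44 and 8.17 on 344SQ, at 8.69, 10.50, 9.30 and 8.40 on 393LN and at 8.62, 8.07, 8.97 and 7.90 on 393P. With this probe set the same 3 arrays of the 393 lines were highest. The 2 other Sbsn probe sets shared this only in part. Both were highest on 393LN replicates 2 and 3 and next on 344SQ replicate 1 (8.36 and 5.72), with 393P replicate 3 at 8.34 and 4.76. Their changes were -0.83 and -0.61 in 344SQ against 393LN, close to the -0.96 of the brightest (adjusted p = 0.217, 0.339 and 0.134). None of the Sbsn probe sets passed in any comparison.

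Sprr2d, which encodes a small proline-rich protein of another subgroup, was at 6.93, 6.87, 6.40 and 6.48 on 344SQ, at 6.24, 7.92, 7.49 and 6.84 on 393LN and at 6.84, 6.74, 7.29 and 6.53 on 393P. Its 3 highest arrays were again those of Krtdap. Genes of the Sprr2 subgroup are near-identical, so that this probe set may also take up transcripts of its relatives. The changes between lines are poorly bounded for these genes. In 344SQ against 393LN that of Krtdap was -1.52 (interval -4.19 to 1.14, adjusted p = 0.483) and that of Sprr1b -1.56 (interval -3.45 to 0.34, adjusted p = 0.294). In 344SQ against 393P they were -0.04 (interval -2.71 to 2.62, adjusted p = 0.99) and -0.68 (interval -2.57 to 1.22, adjusted p = 0.72).

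Cnfn, which encodes cornifelin, and Sprr3, a small proline-rich gene of oesophagus and other internal stratified epithelia, varied little. Cnfn ranged from 6.94 to 8.02 over the 12 arrays, with its highest value on 393LN replicate 2. Sprr3 ranged from 6.44 to 7.30, highest on 344SQ replicate 2. The largest of their changes was 0.35 (interval -0.02 to 0.73, adjusted p = 0.359) for Cnfn in 393LN against 393P and 0.28 (interval -0.09 to 0.65, adjusted p = 0.333) for Sprr3 in 344SQ against 393LN. Within lines their SDs were 0.26 and 0.25, against a median of 0.23 over all genes.

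**Figure D3:**
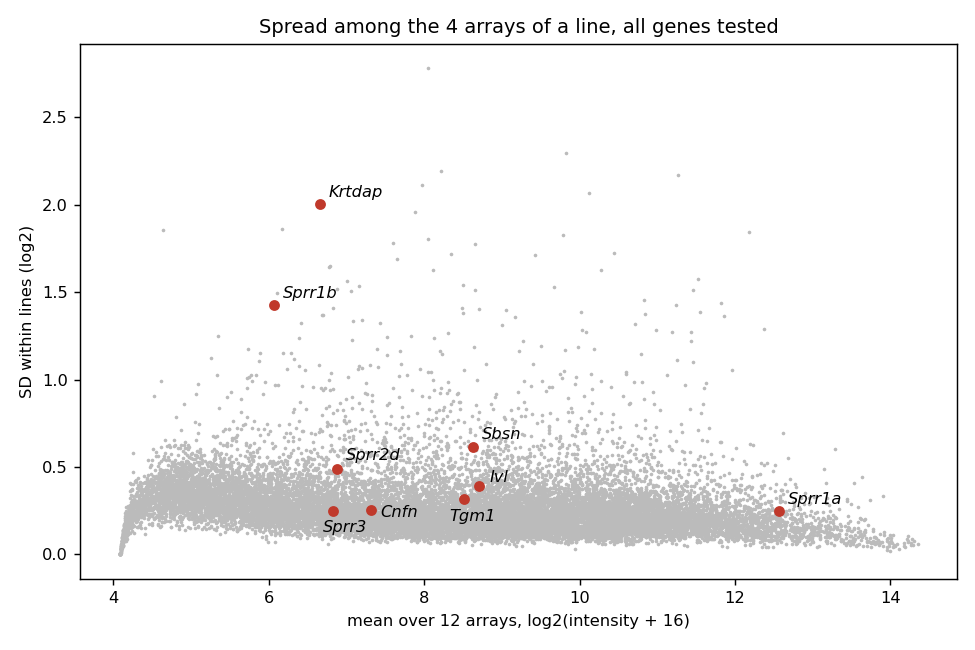
SD among the 4 arrays of a line, pooled over the 3 lines, against the mean level over 12 arrays for the 18193 genes (grey) and the 9 cornified envelope genes (red). Krtdap at 2.00 and Sprr1b at 1.42 lie far above most genes, Sbsn and Sprr2d less so, and Sprr1a, Sprr3 and Cnfn lie within the main band.

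Most, but not all, markers of host skin moved with the array pattern. Krt1, the keratin of suprabasal epidermis, was at 10.31 on 393LN replicate 2, 8.85 on 393LN replicate 3, 8.23 on 393P replicate 3 and 7.94 on 344SQ replicate 1. On the other 8 arrays it lay between 5.59 and 6.04. The filaggrin gene Flg was also highest on these arrays, at 9.14, 7.56, 8.04 and 7.14, as was Krt10, the partner of Krt1, at 11.83, 10.72, 10.09 and 9.87. The basal keratin gene Krt14 was at 11.74, 10.63, 10.59 and 9.66 there. Of 13 measured skin markers 10 were highest on 393LN replicate 2, and 393LN replicate 3 and 393P replicate 3 were among the top 3 arrays for 11 and 7 of them. The exceptions were Krt2, highest on 393P replicate 1 (5.50), and Dsc1 and Casp14, highest on 344SQ replicate 2 (7.79 and 11.13).

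The summed intensity of the 13 skin markers ranged from 3946 to 5809 in 344SQ, from 4127 to 14745 in 393LN and from 4184 to 7279 in 393P, and none was at the floor on all arrays. Between lines 1 of the 13, the loricrin gene Lor, differed, being lower in 344SQ against both 393 lines. This is 7.69% of the list, beside 5.62% and 6.92% of all genes that were lower. Over the 12 arrays, after each line's mean was taken off, the correlation with Krt1 was 0.98 for Krtdap, 0.91 for Sprr2d, 0.88 for Sprr1b, 0.85 for Sbsn and 0.62 for Cnfn, against 0.29 for Sprr3, 0.28 for Tgm1, -0.39 for Sprr1a and -0.44 for Ivl. These coefficients only describe, since both values of a point come from 1 array. In such bulk tissue, more cells of a type and more RNA per cell cannot be told apart, and the part of host skin in the levels of Krtdap, Sprr1b, Sbsn and Sprr2d was not tested. The summed hair follicle markers were also highest on 393LN replicate 2, at 2811 against 1180 to 1919 on all other arrays. Skeletal muscle markers were highest on 393LN replicate 1 (10838) and fat markers on 344SQ replicate 3 (8338), neither of them an array on which any of the 9 genes peaked. The summed leukocyte markers were highest on 393P replicate 4 (28224), which was also the highest array of Sprr1a and Ivl. That sum rests largely on S100a8 and S100a9, at 12.82 and 13.01 there. Like S100a9, Itgam was highest on that array, whereas Ptprc, Csf1r, Aif1 and Tyrobp were highest on 393P replicate 2.

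**Figure D4:**
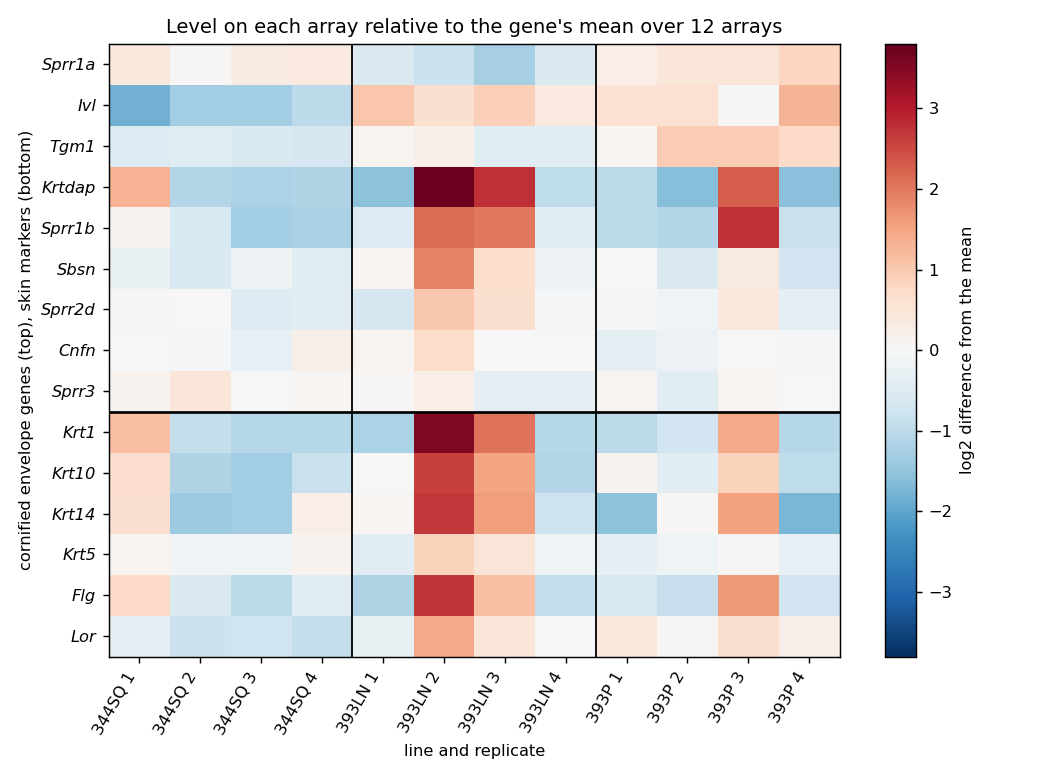
Level of the 9 genes (top) and 6 skin markers (bottom) on each array relative to the gene's own mean over the 12 arrays, on the log2 scale from blue (low) to red (high). Krtdap and Sprr1b are red on 393LN replicates 2 and 3 and 393P replicate 3 together with Krt1, Krt10, Krt14 and Flg. Sbsn and Sprr2d are above their means on the same arrays, but only faintly coloured on 393LN replicate 3 and 393P replicate 3. Sprr1a, Ivl and Tgm1 follow the lines.

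Without the 4 arrays highest in Krt1, a choice made after seeing the data, the lines had 3, 2 and 3 arrays. Ivl remained lower in 344SQ against 393P (-2.01, adjusted p = 0.00662) and against 393LN (-1.92, adjusted p = 0.0237), and Tgm1 in 344SQ against 393P (-1.15, adjusted p = 0.0444). The calls of Sprr1a ended, as given above. The arrays left out are those on which Krtdap was highest, so that its smaller change, and those of the genes that follow it, were set by the choice of arrays and are not read as results: in 344SQ against 393LN they were 0.11 ± 0.24 for Krtdap, -0.59 for Sprr1b and -0.33 for Sbsn. Fewer genes passed in all with these 8 arrays: 770, 268 and 2 in place of 1907, 1984 and 446.

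The genes most like each of the 9 over the 12 arrays, by Pearson's r among 7566 others that ranged over at least 1 log2 unit, differed between the 2 patterns. For Krtdap they were Krt1, Krt6b and Calm4 (r = 0.98, 0.98 and 0.98), for Sprr1b Krt6b, Krt16 and Calm4 (0.95, 0.91 and 0.91) and for Sprr2d Lce1c, Clca3a2 and Dsg1a (0.93, 0.93 and 0.92). Dmkn, a suprabasal gene next to Sbsn and Krtdap, was first for Sbsn (0.94), before Krt25 (0.94) and Clca3a2 (0.93). Several of these are keratins or genes of epidermal differentiation. For Ivl they were Galnt7, Tmprss4 and Kcnk1 (0.98, 0.96 and 0.96), for Tgm1 Gpr160, Psapl1 and Slco3a1 (0.95, 0.95 and 0.93) and for Sprr1a Tatdn1, Fat1 and Wtip (0.93, 0.92 and 0.92), none of them an envelope gene. Sprr3 was most like 4931430N09Rik, Gabrg3 and Slc6a14 (0.85, 0.84 and 0.81), and Cnfn most like the hair genes Krtap15 and Krtap21-1 and A830018L16Rik (0.88, 0.84 and 0.83). These coefficients are for description and share the arrays of all lines.

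The rest of the pathway was read from lists. Of 35 other envelope proteins none rose in 344SQ, and 2 fell against 393P and 4 against 393LN, with median changes of -0.06 and -0.21. These are 5.71% and 11.4% of the list, beside 5.62% and 6.92% of all genes that were lower. The array pattern was seen in this list too: 21 of the 35 were highest on 393LN replicate 2. For 22 and 18 of them, 393LN replicate 3 and 393P replicate 3 were among the top 3 arrays. Lor, the main protein of the mature envelope in skin, was 2.05-fold and 2.18-fold lower (adjusted p = 0.0468 and 0.0323). Tchh, trichohyalin of the hair follicle's inner sheath, was 5.93-fold and 5.24-fold lower (adjusted p = 0.0129 and 0.0191). Against 393LN, Cst6, a protease inhibitor of the cornified layer, fell by 2.93 (adjusted p = 0.0293) and the dim Tchhl1 by 0.73 (adjusted p = 0.0229). In 393LN against 393P 0 of 35 passed.

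The neighbours on chromosome 3 were counted as well. Of the 51 protein-coding genes from Lor to Tchhl1 in the RefSeq order, 31 were measured besides the 5 members. Lor and Tchh fell in 344SQ against 393P, 2 of 31, and these and Tchhl1 against 393LN, 3 of 31. Of all genes 5.62% and 6.92% were lower there. The genes that fell are ones already counted among the other envelope proteins above. In 393LN against 393P 0 of the 31 neighbours passed, beside 2.45% of all genes. Their median changes were -0.04, -0.13 and 0.15. Sprr3, which lies between Sprr1b and Sprr1a, shared neither the array pattern of Sprr1b nor the line pattern of Sprr1a.

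Among 17 crosslinking and processing genes, 2 fell in 344SQ against each 393 line and none rose, which is 11.8% lower beside the 5.62% and 6.92% of all genes. Prss8, the membrane-anchored protease prostasin needed for the skin barrier, was 2.97-fold lower than in 393P (adjusted p = 0.00096) and 3.89-fold lower than in 393LN (adjusted p = 0.000283). Ctsd, the lysosomal protease that processes Tgm1, fell by 0.46 and 0.47 (adjusted p = 0.034 and 0.0315). Tgm3, the transglutaminase that works beside Tgm1 in skin, was at 9.21 ± 0.15, 9.08 ± 0.12 and 9.29 ± 0.10 in 344SQ, 393LN and 393P (adjusted p = 0.75, 0.509 and 0.408 in the 3 comparisons).

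Of 19 barrier lipid genes 2 fell and 1 rose in 344SQ against 393P, and 2 and 2 did against 393LN. The falls are 10.5% of the list in both, and the rises 5.26% and 10.5%, where 4.86% and 3.99% of all genes rose. Cers3, the synthase of the ultra-long ceramides attached to the envelope, lay at 5.06, 5.39, 5.12 and 5.83 on 344SQ, at 8.31 to 9.12 on 393LN and at 9.25 to 9.87 on 393P. It was 17.9-fold lower than in 393P (adjusted p = 4.26e-07) and 11.0-fold lower than in 393LN (adjusted p = 2.35e-06), the largest fall against 393P among the genes of these lists that passed. The fatty acid transporter gene Slc27a4 fell by 0.66 against 393P, and Dgat2, which makes triglyceride, by 0.55 against 393LN. Ugcg, which makes glucosylceramide, rose by 0.69 and 0.68, and the lipid transporter gene Abca12 by 0.57 against 393LN.

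Regulators of squamous differentiation gave 3 falls and 1 rise of 32 in 344SQ against 393P and 5 and 1 against 393LN. The falls are 9.38% and 15.6% of the list, beside 5.62% and 6.92% of all genes, and the rises 3.12%. The epithelial repressor genes Ovol1 and Ovol2 fell by 1.45 and 1.08 against 393P and by 1.21 and 0.99 against 393LN, and the epithelial Ets factor gene Elf3 by 1.49 and 1.18. Nfe2l2, which encodes the antioxidant regulator Nrf2, rose by 0.64 and 0.59. Trp63, the master factor of stratified epithelium, was at 6.46 ± 0.37, 6.82 ± 0.65 and 6.53 ± 0.14 in 344SQ, 393LN and 393P, and its smallest adjusted p was 0.47. Grhl3 had changes of -0.06, -0.38 and 0.31 and Klf4 of -0.01, 0.59 and -0.61 in the 3 comparisons, none past the test (smallest adjusted p 0.136 and 0.06).

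Among 25 squamous keratin and desmosome genes 4 fell in 344SQ against 393P and 3 against 393LN, 16% and 12% of the list beside 5.62% and 6.92% of all genes. On 393LN replicate 2, 12 of the 25 were highest, and 393LN replicate 3 and 393P replicate 3 were among the top 3 arrays for 17 and 12. The desmosomal plakophilin gene Pkp1 was 8.12-fold and 9.55-fold lower and Pkp3 4.10-fold and 3.77-fold lower. The stress keratin gene Krt6a was 13.5-fold and 10.6-fold lower, and the desmocollin gene Dsc2 was 1.72-fold lower against 393P. The leukocyte genes Aif1 and Tyrobp fell in the same 2 comparisons, by 1.26 and 1.03 and by 0.92 and 0.59, 2 of 14 leukocyte markers or 14.3%, and the part of leukocytes in the changes of the 9 genes was not tested. In the muscle list Myh7 rose by 0.61 and 0.70 in 344SQ, 1 of 10 markers or 10%, beside 4.86% and 3.99% of all genes. The muscle list as a whole did not follow it: 4 markers were above 0 and 6 below against 393P, and 1 above and 9 below against 393LN. Flt1 rose by 1.32 against 393LN, 1 of 9 endothelial markers or 11.1%, of which 4 were above 0 and 5 below. Of the 6 fat and 10 fibroblast markers 0 passed. All 10 fibroblast markers nevertheless had changes above 0 in 344SQ against both 393 lines, with medians of 0.36 and 0.41, and their part in the falls of the envelope genes was not tested.

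Without the 4 arrays highest in Krt1, most of these changes stayed close in size while fewer passed, with 3 against 3 and 3 against 2 arrays left. Against 393P the falls of Lor, Tchh, Prss8, Cers3, Ovol1, Ovol2, Pkp1, Pkp3, Krt6a, Aif1 and Tyrobp and the rises of Ugcg and Nfe2l2 passed, and Cst6 joined them. Ctsd (-0.49), Slc27a4 (-0.60), Elf3 (-1.43), Dsc2 (-0.73) and Myh7 (0.57) no longer passed there, with adjusted p between 0.125 and 0.25. Against 393LN Cst6, Prss8, Cers3, Pkp1, Aif1 and Tyrobp passed. Krt6a (-3.65), Pkp3 (-1.76), Ovol2 (-0.91), Ovol1 (-1.27), Elf3 (-1.13), Ctsd (-0.61), Ugcg (0.71), Abca12 (0.52), Nfe2l2 (0.46), Tchhl1 (-0.58), Myh7 (0.78) and Flt1 (1.02) no longer passed there, nor did the other two regulators, Grhl1 (-2.54) and Sox2 (-3.75), which are named here after their values were seen. Of those that no longer passed, Lor (from -1.12 to -0.69) and Dgat2 (from -0.55 to -0.37) moved most in proportion, and Tchh was at -1.85. In 393LN against 393P 0 genes of all these lists passed in limma's fit over 12 arrays, where 12 of their 191 genes, 6.28%, had an unadjusted p under 0.05 beside 15.7% of all genes.

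**Figure D5:**
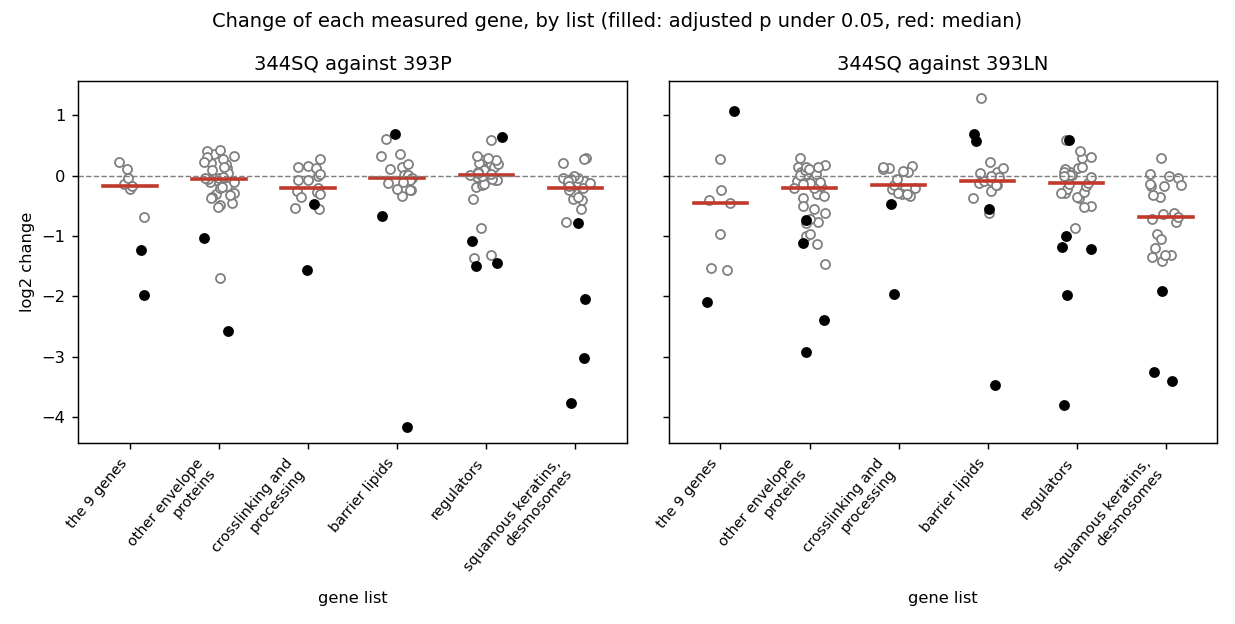
Log2 change of each measured gene of the 9 and of 5 lists of the pathway in 344SQ against 393P (left) and against 393LN (right), with filled points at an adjusted p under 0.05 and the list's median in red. Most filled points lie below 0, while the medians lie between -0.68 and 0.01.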

How the data were processed

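Probe set intensities on a linear scale were used as deposited; per the labels' protocols biotin-labelled cRNA was made by the Affymetrix method. For their summarisation and normalization, the software was not given in the sources used here. Array medians on the log2 scale lay between 7.19 and 7.29, so no further scaling was applied. Of 45101 probe sets, 34945 have 1 gene symbol, 932 several and 9160 none in the annotation given, and 64 are controls; the first were used, 1 per gene. No other columns of values were present (0). A mean per line was fitted to log2(intensity + 16) over 12 arrays with limma 3.58.1 in R 4.3.3 (lmFit and eBayes, 9 residual degrees of freedom), with Benjamini-Hochberg adjustment over 18193 genes and no filter on dim genes. With the dimmest 25% and 50% of genes left out, 8 and 4 of the 9 genes would have been kept. The scripts were tested on simulated data. The number of arrays limits the precision.

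The members and lists were chosen with earlier results of these data known. Named beside the 9 genes are up to 4 genes per list and comparison with the smallest p among those that passed, fixed skin markers and regulators, and the 3 genes most like each member. Krt8, Krt18, Krt19, Cdh1 and Nkx2-1 were added to check the tissue, after their values were seen. Alternatives were 2 other scalings, pseudocounts of 1 and 64, 2 filters, 2 choices of probe set, fits of 2 lines, another prior and leaving out each array.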

Additional observations from a re-analysis of the deposited data

Results flagged for a closer look

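Among 41 genes named above, 12 of 123 sets of 4 arrays held a value far from the other 3. The rule used marks about 1 set in 20 when values are independent and normally distributed. These genes share their arrays, and several flags fall on 393P replicate 3 and 344SQ replicate 1, so the 12 are not set against that rate. Of the envelope genes, Sprr1b was at 8.80 on 393P replicate 3 against 4.94 to 5.21 on the other 393P arrays. Krtdap was at 8.97 on the same array against 5.04 to 5.65, and at 7.99 on 344SQ replicate 1 against 5.47 to 5.56. Cnfn was at 8.02 on 393LN replicate 2 against 7.29 to 7.40. Of the skin markers, Krt1 was at 8.23 on 393P replicate 3 against 5.69 to 6.04 and at 7.94 on 344SQ replicate 1 against 5.69 to 5.88, and Flg was at 8.04 on 393P replicate 3 against 5.55 to 5.83. Others were Dsc2 at 7.77 on 393LN replicate 3, Pkp3 at 8.77 on 344SQ replicate 4, Ovol1 at 5.77 on 344SQ replicate 3, Flt1 at 10.12 on 393LN replicate 1 and Myh7 at 7.76 on 393LN replicate 4.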

How the results depend on the processing

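Over 23 alternatives the changes of the 9 genes gave 603 values, of which 579 kept both direction and side of the threshold. Part of this was fixed in advance. A change stays the same when the array left out belongs to a line outside the comparison. The filters, the fits of 2 lines and the other prior also leave it as it was and alter only its test. The count is therefore not read as a measure of robustness. The falls of Ivl in both comparisons and of Tgm1 in 344SQ against 393P passed under every one, with highest adjusted p of 0.0167, 0.0237 and 0.0444. In 393LN against 393P the number of the 9 genes that passed was 1, and 2 with quantile normalization, with the dimmest 25% or 50% left out and with the trended, robust prior, Tgm1 being the second. With the 4 arrays highest in Krt1 left out (added after seeing the data) it was 0, and 1 in place of 2 in 344SQ against 393LN; over all genes 770, 268 and 2 passed. With only the 2 lines fitted, 174 genes passed in 393LN against 393P. Leaving out 1 array gave 1259 to 1932 genes in 344SQ against 393P, 1167 to 2481 in 344SQ against 393LN and 156 to 438 in 393LN against 393P, and 2 to 2, 2 to 2 and 1 to 2 of the 9 genes. The count for all genes moved by over 1.5 times without 393P replicate 3 (1259), without 344SQ replicate 2 (1167), and, in 393LN against 393P, without 393LN replicate 2 (259) or 3 (167) or 393P replicate 2 (193), 3 (156) or 4 (192).

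Changes that turned sign were among those that had not passed. Krtdap in 344SQ against 393P was 0.0778 with a pseudocount of 1 and Sbsn 0.0002 with the mean of its probe sets. With the 4 arrays left out these were 0.27 and 0.0176, Krtdap in 344SQ against 393LN was 0.11, Sprr2d was 0.0435 there and -0.16 in 393LN against 393P, and Ivl in the latter was -0.0846. Leaving out 1 array gave ranges across 0 for Krtdap (-0.66 to 0.88), Sprr1b (-1.03 to 0.26) and Sbsn (-0.30 to 0.0594) in 344SQ against 393P and for Sprr3 (-0.17 to 0.0355) and Ivl (-0.063 to 0.35) in 393LN against 393P. The cause was not tested. Sprr1b was among the dimmest 25% of genes and near the floor on most arrays, where a change between lines is hard to see. No paired analysis was possible because the labels pair no arrays between lines, and the replicate numbers used here were assigned in the order of the samples.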
